A study of Mus musculus with 12 samples.

Results

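The NF-κB subunits and their inhibitors were followed as a group of 10 genes across 4 groups of bone marrow-derived macrophages (BMDMs). Members were taken by gene symbol and comprised the 5 subunits (Nfkb1, Nfkb2, Rel, Rela and Relb) and 5 inhibitors (Nfkbia, Nfkbib, Nfkbie, Nfkbiz and Tnfaip3). They were 10 of the 55335 genes in the deposited table, each on a single row, and all 10 were among the 12622 genes that reached 1 FPKM or more in at least 3 of the 12 libraries. FPKM is the number of fragments scaled by gene length and by the mapped fragments of the library, so levels of different genes can be compared. Gene positions are those of GENCODE M21 (GRCm38), whereas the submitters' processing notes name GRCm39.

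BMDMs are macrophages grown from marrow cells of the mouse, here from C57BL/6 mice aged 8 weeks and cultured for 7 days with macrophage colony-stimulating factor. Total RNA was sequenced from 4 groups of 3 libraries, which were control and LPS- and ATP-costimulated (LPS+ATP) BMDMs of wild-type and of Nlrp3-/- mice, where Nlrp3-/- mice lack NLRP3 in all cells and not in macrophages alone. Controls received neither agent, and the labels give the costimulated cells LPS for 4 hours followed by ATP for 30 minutes, whereas the methods of the study give 12 hours and 2 hours. The comparisons asked how the transcripts changed with costimulation in either genotype, how the genotypes differed in either state, and whether the change with costimulation differed between genotypes.

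NF-κB proteins are dimeric transcription factors that rest in the cytoplasm of macrophages bound to IκB inhibitors. LPS, a bacterial cell wall component sensed by Toll-like receptor 4, activates the IKK kinase complex, which marks IκB proteins for degradation and lets the dimers enter the nucleus. Several genes of the pathway, among them Nfkbia and Tnfaip3, are known targets of NF-κB itself and close negative feedback loops, and the NF-κB signal is the priming step that supplies NLRP3 and pro-IL-1β before ATP triggers the inflammasome.

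The decamer bound by these dimers, the κB consensus, was searched on both strands in promoter sequences from 250 bases before to 50 bases after each annotated start (RefSeq, GRCm38.p6). Sequences were present for 7 of the 10 members, in 10 windows of 300 bases, whereas Nfkb1, Relb and Nfkbiz had no entry. A match was found in 7 of the 10 windows, from 5 members (Nfkb2, Rel, Nfkbia, Nfkbie and Tnfaip3), and in 8.46% of all 32851 windows. The last 2 windows of Nfkb2 overlap and share 1 match. By gene, 5 of the 7 members held a match, as did 9.55% of the 27025 genes with a window. No match was present in the windows of Rela and Nfkbib. Overlapping matches were counted as 1 locus. A match describes the letters in a window and is not evidence of binding.

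The loci are shown because they lie near annotated starts of genes that differ widely in their change with costimulation. The 250 bases before the start are given for Nfkbia, the member with the highest level after costimulation, and for Rel, the member that did not pass the test for costimulation, both from the minus strand and with the matched bases in capitals. The match lies 29 to 20 bases before the start of Nfkbia (chr12:55492648-55492897) and, as 3 overlapping matches, 92 to 82 bases before the start of Rel (chr11:23770970-23771219).
Nfkbia: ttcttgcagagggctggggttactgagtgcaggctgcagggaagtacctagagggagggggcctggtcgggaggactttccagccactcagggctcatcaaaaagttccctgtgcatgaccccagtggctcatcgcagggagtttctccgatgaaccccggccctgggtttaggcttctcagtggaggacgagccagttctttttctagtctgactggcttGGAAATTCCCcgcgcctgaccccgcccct
Rel: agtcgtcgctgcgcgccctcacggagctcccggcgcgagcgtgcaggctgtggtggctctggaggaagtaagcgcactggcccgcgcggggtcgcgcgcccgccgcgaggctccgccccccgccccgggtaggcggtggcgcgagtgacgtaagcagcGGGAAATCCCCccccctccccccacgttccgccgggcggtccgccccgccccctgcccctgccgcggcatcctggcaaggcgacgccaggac
The remaining loci are shown with their flanks in lower case. Nfkb2 held 4, from its 3 annotated starts on the plus strand of chromosome 19, of which the first spans 3 overlapping matches. By the RefSeq starts, the first and the next lie 39 to 29 and 11 to 2 bases before the most upstream start, the third lies 236 to 227 bases before the next start, and the fourth lies 11 to 20 bases after that start. GENCODE M21 has a transcript that begins further upstream, so that all 4 lie within the gene by that annotation, 3 of them in exons and the third in an intron.
Nfkb2, chr19:46304688-46304717: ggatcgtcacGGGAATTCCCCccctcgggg
Nfkb2, chr19:46304716-46304745: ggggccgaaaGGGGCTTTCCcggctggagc
Nfkb2, chr19:46305449-46305478: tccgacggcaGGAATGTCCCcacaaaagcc
Nfkb2, chr19:46305695-46305724: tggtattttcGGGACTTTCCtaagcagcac
Nfkbie had 1 locus on the plus strand, 106 to 97 bases before its start, and Tnfaip3 had 2 on the minus strand, 125 to 116 and 12 to 3 bases before the more upstream of its 2 RefSeq starts. A single one of the 6 GENCODE M21 transcripts of Tnfaip3 begins further upstream and spans both in an intron, whereas the loci of Nfkbie, Nfkbia and Rel lie outside the GENCODE genes.
Nfkbie, chr17:45555584-45555613: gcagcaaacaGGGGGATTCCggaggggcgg
Tnfaip3, chr10:19015516-19015545: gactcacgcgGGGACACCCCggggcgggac
Tnfaip3, chr10:19015403-19015432: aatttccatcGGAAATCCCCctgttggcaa

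Several facts of the libraries bear on the values below. Nlrp3 was listed at 0 in all 6 Nlrp3-/- libraries and at 9.24 to 33.6 FPKM in the 6 from wild-type cells. Xist reached at most 0.0416 FPKM in wild-type cells but 32.8 to 56.3 FPKM in Nlrp3-/- cells, and the Y-linked Ddx3y was between 7.72 and 10.9 FPKM in wild-type and at 0 in Nlrp3-/- libraries, so that sex and genotype cannot be told apart. Of 7 macrophage markers, 6 were on a single row, and their summed FPKM was 2103 to 2164 in wild-type control, 2194 to 2220 in wild-type LPS+ATP, 1385 to 1399.8 in Nlrp3-/- control and 1793 to 1812 in Nlrp3-/- LPS+ATP. The 7 markers of neutrophils and their precursors summed to 241 to 274, 91.6 to 108, 1420.0 to 1468 and 417 to 445 FPKM in the same order, and the 5 fibroblast markers to 157 to 161, 180.1 to 183, 1164 to 1180.3 and 889.8 to 905 FPKM. The part of these markers in the differences between genotypes was not tested. In bulk RNA, a gene carried by fewer cells and a gene with less RNA per cell cannot be told apart.

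Costimulation raised 9 of the 10 members in wild-type BMDMs, with Rel as the exception, and lowered none. Tests were made with limma on log2(FPKM + 1), with Benjamini-Hochberg adjustment over all tested genes and an adjusted p under 0.05 as the threshold, and log2 differences are given on that scale, which understates changes of genes at low FPKM. Among all 12622 tested genes, 23.3% passed as higher and 53.1% as lower. Of the 9 members, 6 also differed by at least 1 on the log2 scale, as 8.25% of all tested genes did in that direction. The median log2 difference of the 10 members was 2.04, and that of all tested genes was -0.25. With scaling by median ratios the latter became -0.01, calls of higher genes went from 30.5% to 49.8% of all calls, and all 10 members passed as higher.

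In Nlrp3-/- BMDMs 9 members also rose, 6 of them by at least 1 on the log2 scale, and 0 fell, Rel again being the exception. Of all tested genes, 20.6% passed as higher and 53.8% as lower, and 6.64% rose by at least 1. The median log2 difference was 1.38 in the members and -0.24 over all tested genes, and median-ratio scaling moved the latter to -0.01, the share of higher calls from 27.6% to 49.7% and the number of members called higher from 9 to 10.

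**Figure D1:**
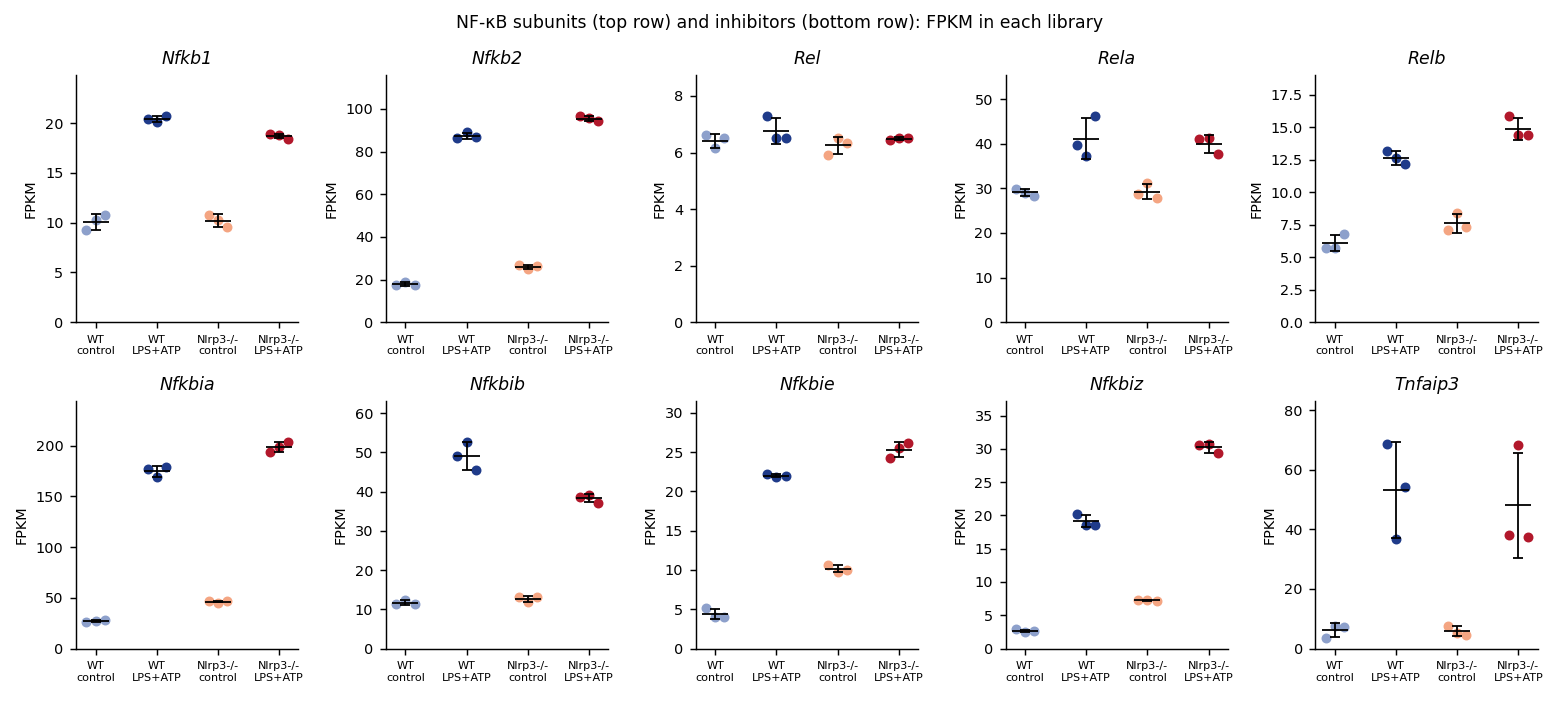
FPKM (vertical axes, from 0) of the 5 subunits in the top row and the 5 inhibitors in the bottom row, in control and costimulated BMDMs of wild-type (WT) and Nlrp3-/- mice. Each point is 1 library, the horizontal bar is the mean and the whiskers are the SD (n = 3). Rel lies between 5.91 and 7.30 FPKM throughout, and Tnfaip3 has the widest spread within the costimulated groups.

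Among the subunits, Nfkb2 (ENSMUSG00000025225, chr19:46304320-46312385, plus strand), which encodes the p100 precursor of p52, changed most. Its level was 17.6, 19.0 and 17.4 FPKM in the wild-type control libraries and 86.2, 88.9 and 86.8 FPKM with LPS+ATP, and it was 26.9, 25.0 and 26.3 FPKM in Nlrp3-/- control and 96.7, 95.6 and 94.1 FPKM with LPS+ATP. All costimulated libraries lay above all control libraries, and in each state the Nlrp3-/- libraries lay above the wild-type ones. The mean rose 4.85-fold in wild-type (log2 difference 2.22 ± 0.0381 SE, limma adjusted p = 6.67e-13) and 3.66-fold in Nlrp3-/- BMDMs (1.83 ± 0.0381 SE, limma adjusted p = 4.10e-12). The gene overlaps Psd and a long noncoding RNA on the opposite strand, and whether the counting used strand is not given in the sources used here.

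Nfkb1 (ENSMUSG00000028163, chr3:135584655-135691547, minus strand), which encodes the p105 precursor of p50, was between 9.24 and 10.8 FPKM in wild-type control, 20.1 and 20.7 FPKM in wild-type LPS+ATP, 9.57 and 10.8 FPKM in Nlrp3-/- control and 18.4 and 18.9 FPKM in Nlrp3-/- LPS+ATP. Its mean rose 2.03-fold and 1.83-fold (log2 differences 0.95 ± 0.0547 and 0.82 ± 0.0547 SE, limma adjusted p = 2.18e-08 and 1.15e-07). Relb (ENSMUSG00000002983, chr7:19606217-19629438, minus strand), whose product pairs mainly with p52 in the noncanonical branch, ran from 5.73 to 6.79, 12.1 to 13.2, 7.08 to 8.43 and 14.4 to 15.9 FPKM in the same order of groups. It rose 2.08-fold and 1.96-fold (0.95 ± 0.0748 and 0.89 ± 0.0748 SE, limma adjusted p = 3.78e-07 and 8.14e-07). For both genes control and costimulated libraries did not overlap.

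Rela (ENSMUSG00000024927, chr19:5637483-5648130, plus strand), which encodes the p65 subunit with a transactivation domain, had the highest mean of the 10 members in wild-type control and changed less. It was 29.9, 29.0 and 28.4 FPKM in wild-type control and 39.8, 37.3 and 46.3 FPKM in wild-type LPS+ATP, and 28.7, 31.2 and 27.9 FPKM in Nlrp3-/- control and 41.0, 41.2 and 37.7 FPKM in Nlrp3-/- LPS+ATP. The genotypes overlapped in both states, whereas costimulated libraries lay above controls. The mean rose 1.41-fold in wild-type (0.48 ± 0.0721 SE, limma adjusted p = 8.96e-05) and 1.37-fold in Nlrp3-/- BMDMs (0.44 ± 0.0721 SE, limma adjusted p = 0.000206).

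Rel (ENSMUSG00000020275, chr11:23736847-23770970, minus strand), which encodes c-Rel, was the only member whose groups all overlapped with their neighbours in the order of levels. Its FPKM was 6.62, 6.15 and 6.50 in wild-type control, 7.30, 6.50 and 6.52 in wild-type LPS+ATP, 5.91, 6.50 and 6.35 in Nlrp3-/- control and 6.43, 6.51 and 6.52 in Nlrp3-/- LPS+ATP. The log2 difference with costimulation was 0.06 in wild-type (95% interval -0.05 to 0.18, limma adjusted p = 0.272) and 0.05 in Nlrp3-/- BMDMs (-0.07 to 0.16, limma adjusted p = 0.437). The call rests on the scaling, since Rel passed as higher in both genotypes with upper-quartile scaling (0.22 and 0.15) and with median-ratio scaling (0.35 and 0.30).

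The classical inhibitors rose more than most subunits. Nfkbia (ENSMUSG00000021025, chr12:55489410-55492647, minus strand), which encodes IκBα, the inhibitor that is resynthesized within the NF-κB feedback loop, was 25.9, 27.6 and 28.0 FPKM in wild-type control and 177, 169 and 179 FPKM with LPS+ATP. In Nlrp3-/- BMDMs it was 46.6, 45.4 and 46.7 FPKM in control and 194, 198 and 204 FPKM with LPS+ATP. The 4 groups were fully apart, both controls being lowest and, in either state, the Nlrp3-/- libraries higher than the wild-type ones. The rise was 6.44-fold in wild-type (2.64 ± 0.0359 SE, limma adjusted p = 9.94e-14) and 4.30-fold in Nlrp3-/- BMDMs (2.08 ± 0.0359 SE, limma adjusted p = 8.86e-13). Of all tested genes, 1.77% and 2.42% had a larger log2 rise.

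Nfkbib (ENSMUSG00000030595, chr7:28758251-28767512, minus strand), which encodes IκBβ, was 11.4, 12.4 and 11.4 FPKM in wild-type control and 49.1, 52.6 and 45.5 FPKM with LPS+ATP, against 13.2, 11.9 and 13.0 FPKM in Nlrp3-/- control and 38.5, 39.2 and 37.2 FPKM with LPS+ATP. Controls of the genotypes overlapped, while every wild-type costimulated library exceeded every Nlrp3-/- costimulated one. The mean rose 4.18-fold (1.97 ± 0.0585 SE, limma adjusted p = 6.31e-11) and 3.02-fold (1.52 ± 0.0585 SE, limma adjusted p = 8.74e-10). The gene overlaps Sirt2 on the opposite strand, whose mean FPKM was 22.7 in wild-type control, 14.8 in wild-type LPS+ATP, 16.5 in Nlrp3-/- control and 13.4 in Nlrp3-/- LPS+ATP.

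Nfkbie (ENSMUSG00000023947, chr17:45555703-45563169, plus strand), which encodes IκBε, was 5.11, 4.05 and 4.00 FPKM in wild-type control and 22.2, 21.8 and 22.0 FPKM with LPS+ATP, and 10.6, 9.75 and 10.05 FPKM in Nlrp3-/- control and 24.2, 25.6 and 26.1 FPKM with LPS+ATP. Its 4 groups did not overlap and stood in the same order as those of Nfkbia. It rose 5.02-fold in wild-type (2.10 ± 0.0699 SE, limma adjusted p = 1.73e-10) and 2.49-fold in Nlrp3-/- BMDMs (1.24 ± 0.0699 SE, limma adjusted p = 2.54e-08).

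Nfkbiz (ENSMUSG00000035356, chr16:55811375-55838899, minus strand), which encodes the nuclear and inducible IκBζ, a cofactor that enables transcription of secondary NF-κB targets as well as an IκB family member, had the lowest mean of the members in wild-type control. It was 2.86, 2.56 and 2.63 FPKM there and 20.2, 18.6 and 18.6 FPKM in wild-type LPS+ATP, and 7.29, 7.25 and 7.16 FPKM in Nlrp3-/- control and 30.6, 30.8 and 29.3 FPKM in Nlrp3-/- LPS+ATP. The groups were apart, with the Nlrp3-/- libraries higher in either state. The mean rose 7.13-fold (2.45 ± 0.0449 SE, limma adjusted p = 1.17e-12) and 4.18-fold (1.92 ± 0.0449 SE, limma adjusted p = 1.09e-11).

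Tnfaip3 (ENSMUSG00000019850, chr10:19000910-19015657, minus strand), which encodes A20, a ubiquitin-editing enzyme that restrains signaling upstream of IKK, had the largest fitted rise of the members in each genotype and by far the largest spread. It was 3.49, 7.52 and 7.38 FPKM in wild-type control, 68.7, 36.7 and 54.4 FPKM in wild-type LPS+ATP, 7.65, 5.17 and 4.48 FPKM in Nlrp3-/- control and 38.2, 68.5 and 37.5 FPKM in Nlrp3-/- LPS+ATP. Costimulated and control libraries were apart, whereas the genotypes overlapped in both states. The mean rose 8.69-fold in wild-type (2.94 ± 0.323 SE, limma adjusted p = 6.58e-06) and 8.34-fold in Nlrp3-/- BMDMs (2.83 ± 0.323 SE, limma adjusted p = 1.09e-05). Its SD within groups was 0.456 on the log2 scale, against a median of 0.0697 in the 1675 tested genes of like level, and 1.60% of all tested genes had a larger one. The cause of this spread was not tested.

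The ranking of the members by mean FPKM also changed with costimulation. In wild-type control the order was Rela (29.1 ± 0.763 FPKM, SD, n = 3), Nfkbia (27.2 ± 1.10 FPKM), Nfkb2, Nfkbib, Nfkb1, Rel, Tnfaip3, Relb, Nfkbie and Nfkbiz. Rel, Tnfaip3 and Relb overlapped there, as did Tnfaip3 and Nfkbie. With LPS+ATP the order was Nfkbia (175 ± 5.28 FPKM, SD, n = 3), Nfkb2 (87.3 ± 1.44 FPKM), Tnfaip3, Nfkbib, Rela, Nfkbie, Nfkb1, Nfkbiz, Relb and Rel. Tnfaip3, Nfkbib and Rela overlapped there, as did Nfkb1 and Nfkbiz. In Nlrp3-/- control, Nfkbia (46.2 FPKM) stood before Rela (29.3 FPKM), and with LPS+ATP Nfkbia (199 FPKM) and Nfkb2 (95.5 FPKM) again led and Rel (6.49 FPKM) was last.

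Since FPKM is scaled by gene length, the summed levels of inhibitors and subunits were set against each other in each library. The ratio of Nfkbia, Nfkbib and Nfkbie to the 5 subunits was 0.614, 0.629 and 0.622 in wild-type control, 1.49, 1.47 and 1.43 in wild-type LPS+ATP, 0.888, 0.823 and 0.902 in Nlrp3-/- control and 1.43, 1.49 and 1.56 in Nlrp3-/- LPS+ATP. Transcripts of the 5 subunits thus exceeded those of these 3 inhibitors in all 6 control libraries, and the reverse held in all 6 costimulated libraries. Nfkbiz and Tnfaip3 are not in this ratio. In Nlrp3-/- control the mean sums were 79.4 FPKM for the subunits and 69.1 FPKM for the 3 inhibitors. Nfkbiz and Tnfaip3 had means of 7.23 and 5.77 FPKM there, so which sum is larger depends on the inhibitors counted. The ratio was 2.35-fold higher with costimulation in wild-type (log2 difference 1.23) and 1.72-fold higher in Nlrp3-/- BMDMs (0.78), and 1.40-fold higher in Nlrp3-/- than in wild-type control (0.49). In each of these 3 comparisons the libraries did not overlap, and the two-sided exact permutation p was 0.10, the smallest that 3 against 3 libraries can give. With LPS+ATP the genotypes overlapped (1.46 ± 0.0307 in wild-type and 1.49 ± 0.0626 in Nlrp3-/- BMDMs, SD, n = 3, exact permutation p = 0.40).

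Within the subunits, the share of Nfkb2 in the summed FPKM went from 25.8% ± 1.12 to 51.9% ± 1.72 (SD, n = 3) in wild-type and from 32.9% ± 1.83 to 54.4% ± 0.516 in Nlrp3-/- BMDMs. That of Rela went from 41.7% ± 1.36 to 24.4% ± 2.20 and from 36.8% ± 1.29 to 22.8% ± 0.684. Rel held 9.22% ± 0.416 in wild-type control and 4.03% ± 0.309 in wild-type LPS+ATP, and 7.88% ± 0.391 and 3.70% ± 0.108 in the Nlrp3-/- groups, so its share was lower with costimulation although its own level did not pass the test. Within the sum of Nfkbia, Nfkbib and Nfkbie, Nfkbia held 62.8% to 75.7% in the 4 groups. Nfkbib went from 27.1% ± 0.926 to 19.9% ± 1.59 in wild-type and from 18.4% ± 0.581 to 14.6% ± 0.591 in Nlrp3-/- BMDMs.

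**Figure D2:**
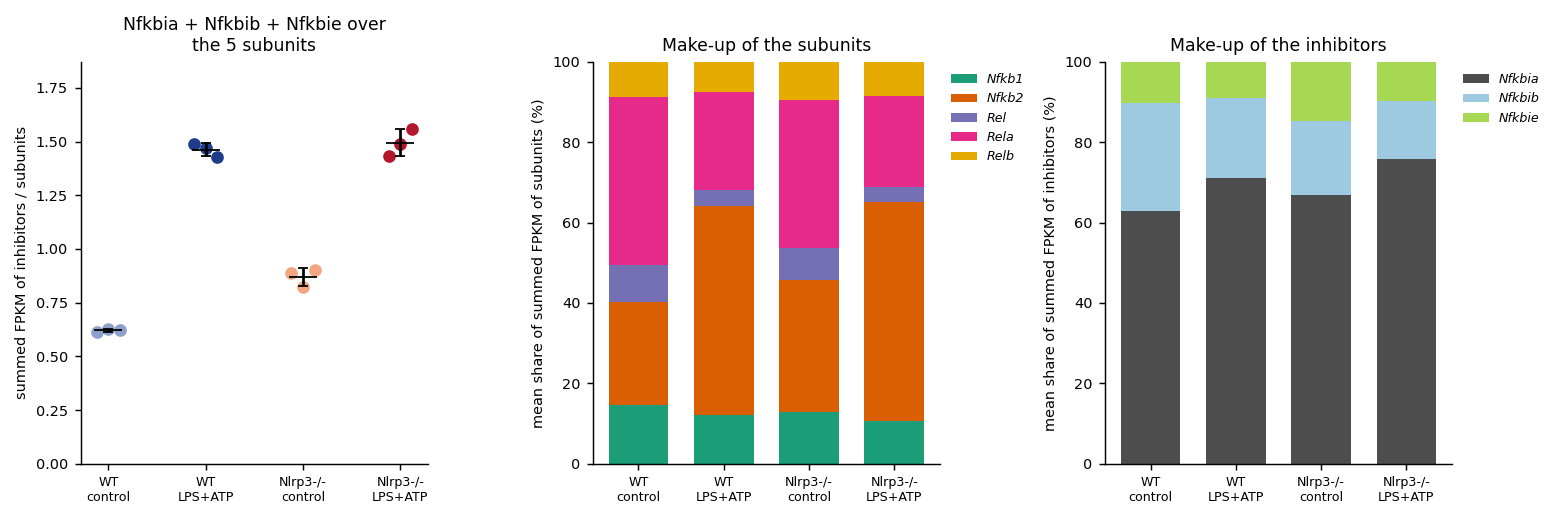
Left, ratio of the summed FPKM of Nfkbia, Nfkbib and Nfkbie to that of the 5 subunits in each library (points), with mean and SD (n = 3). Middle and right, mean share (%) of each gene in the summed FPKM of subunits and of these 3 inhibitors in the 4 groups. The ratio is below 1 in the 6 control libraries and above 1 in the 6 costimulated ones, and Nfkb2 takes 51.9% and 54.4% of the subunit sum after costimulation.

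Between genotypes, control BMDMs differed in 5 members, all higher in Nlrp3-/-, and in 0 members in the other direction, while 33.3% of all tested genes passed as higher and 14.5% as lower. Nfkbiz (2.69-fold) and Nfkbie (2.31-fold) also differed by at least 1 on the log2 scale, as did 6.02% of all tested genes in that direction. The log2 difference was 1.16 ± 0.0449 SE for Nfkbiz (limma adjusted p = 3.02e-09) and 1.05 ± 0.0699 SE for Nfkbie (limma adjusted p = 2.40e-07). Nfkbia was 1.70-fold higher (0.75 ± 0.0359 SE, limma adjusted p = 1.79e-08), Nfkb2 1.45-fold (0.51 ± 0.0381 SE, limma adjusted p = 6.37e-07) and Relb 1.25-fold (0.28 ± 0.0748 SE, limma adjusted p = 0.00975). The 5 others had log2 differences between -0.04 and 0.11, and their intervals were widest for Tnfaip3 (-0.76 to 0.67). The median was 0.19 in the members and 0.09 over all tested genes.

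The genotype calls in control cells depended in part on scaling. With median ratios the median over all tested genes became -0.03 and the share of higher calls fell from 69.6% to 44.5%, Relb no longer passed (0.14) and Rel passed as lower (-0.16), whereas Nfkb2, Nfkbia, Nfkbie and Nfkbiz kept their direction and call under each of the 15 alternatives run. The sums of neutrophil and fibroblast markers given above were higher in the same Nlrp3-/- control libraries and that of macrophage markers was lower, and their part in these 5 differences was not tested.

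With LPS+ATP, 5 members were higher and 1, Nfkbib, was lower in Nlrp3-/- than in wild-type BMDMs, with 35.9% of all tested genes passing as higher and 12.6% as lower. The members higher by at least 1 on the log2 scale numbered 0, against 4.48% of all tested genes. Nfkbiz was 1.58-fold higher (0.63 ± 0.0449 SE, limma adjusted p = 5.16e-07), and Nfkbib was at 0.781 of the wild-type mean (-0.35 ± 0.0585 SE, limma adjusted p = 0.000489). The other 4 calls were small, with mean ratios of 1.09 for Nfkb2, 1.13 for Nfkbia, 1.15 for Nfkbie and 1.18 for Relb (log2 differences 0.13, 0.18, 0.19 and 0.22, limma adjusted p = 0.0171, 0.00146, 0.0408 and 0.0315). Nfkb1 was lower without overlap but did not pass (-0.12, limma adjusted p = 0.0878), and the libraries of the genotypes overlapped for Rel (-0.05), Rela (-0.03) and Tnfaip3 (-0.16, 95% interval -0.87 to 0.56).

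These small differences did not hold across scalings. The median over all tested genes was 0.11 and became -0.04 with median ratios, where the share of higher calls went from 74.0% to 45.6%. Members then counted as 1 higher (Nfkbiz) and 4 lower (Nfkb1, Rel, Rela and Nfkbib), and Nfkb2 and Nfkbia changed sign (-0.06 and -0.01). Upper-quartile scaling gave 1 higher and 3 lower, and leaving out wild-type LPS+ATP replicate 1, 2 or 3 or Nlrp3-/- LPS+ATP replicate 1 left 3 members higher and 1 lower, against 4 and 1 without Nlrp3-/- LPS+ATP replicate 2 or 3. Nfkbia and Nfkbiz were among the members called higher in all 6 of these cases. The higher level of Nfkbiz and the lower level of Nfkbib passed under each of the 15 alternatives.

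**Figure D3:**
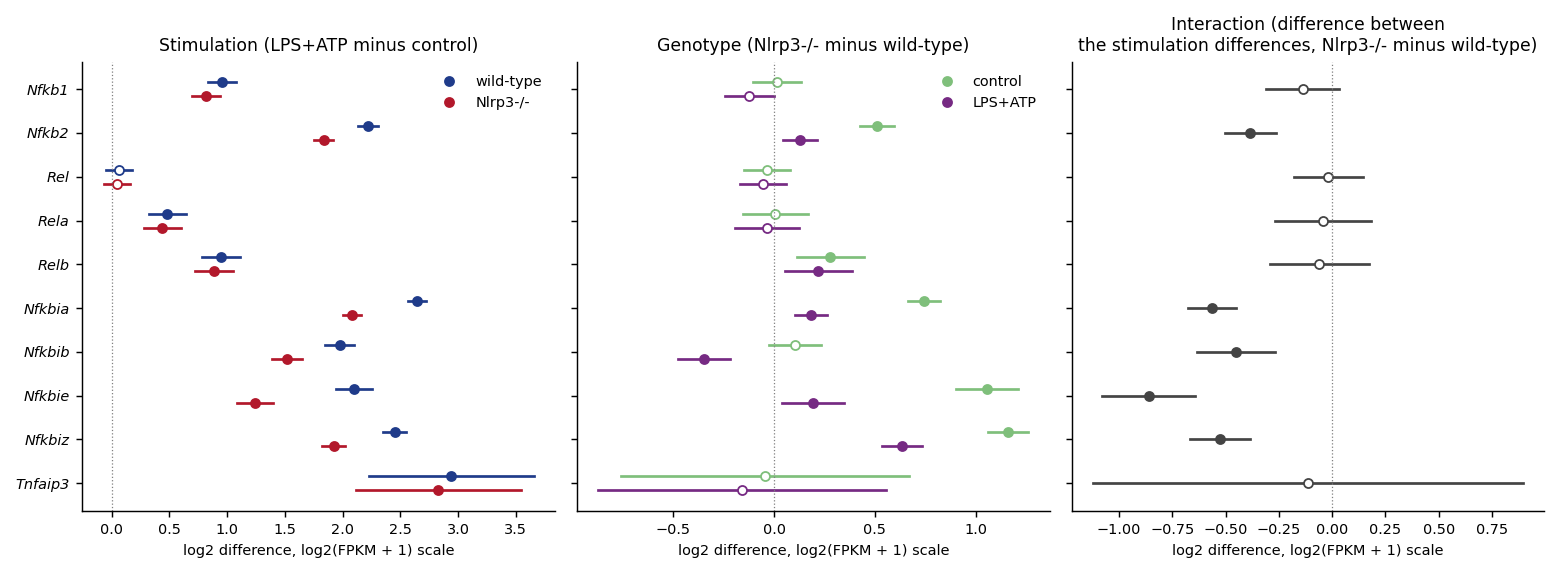
Log2 differences on the log2(FPKM + 1) scale (horizontal axes) with 95% intervals from limma for the 10 members, between states, between genotypes, and as the interaction. Filled points had a Benjamini-Hochberg adjusted p under 0.05 over all 12622 tested genes and open points did not. In the right panel Nfkb2, Nfkbia, Nfkbib, Nfkbie and Nfkbiz lie below 0 with filled points.

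The genotype and costimulation comparisons share libraries, since each group enters 2 of them. By the interaction term, the log2 change with costimulation was smaller in Nlrp3-/- than in wild-type BMDMs for 5 members and larger for 0. The term passed as positive in 14.7% and as negative in 13.0% of all tested genes. It compares changes on the log2 scale, and the gain in FPKM was not tested. The 5 members were Nfkbie (-0.86 ± 0.0988 SE, limma adjusted p = 8.20e-05), Nfkbia (-0.56 ± 0.0507 SE, limma adjusted p = 1.42e-05), Nfkbiz (-0.53 ± 0.0635 SE, limma adjusted p = 0.000119), Nfkbib (-0.45 ± 0.0827 SE, limma adjusted p = 0.00206) and Nfkb2 (-0.38 ± 0.0539 SE, limma adjusted p = 0.000353). The same 5 passed under each of the 20 alternatives. The median interaction was -0.26 in the members and 0.02 over all tested genes.

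The levels behind these 5 terms were of unlike form. For Nfkbia, Nfkbie and Nfkb2 the Nlrp3-/- controls started 1.45-fold to 2.31-fold above the wild-type controls and the costimulated means differed by 1.15-fold or less. For Nfkbiz the genotypes differed in both states, by 2.69-fold and 1.58-fold. For Nfkbib the controls overlapped and the costimulated Nlrp3-/- libraries were lower. The 4 subunits Nfkb1, Rel, Rela and Relb had interaction terms between -0.14 and -0.02 that did not pass, with intervals from -0.31 to 0.18, and Tnfaip3 had -0.11 with an interval from -1.12 to 0.90, within which a term as large as that of Nfkbie would lie.

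Other IκB proteins were measured too. Bcl3, a nuclear IκB protein that binds p50 and p52 homodimers, was 8.13, 9.49 and 8.15 FPKM in wild-type control, 23.6, 22.6 and 20.8 FPKM in wild-type LPS+ATP, 10.8, 11.2 and 10.4 FPKM in Nlrp3-/- control and 19.6, 19.7 and 19.0 FPKM in Nlrp3-/- LPS+ATP. It rose in both genotypes (1.28 and 0.79, limma adjusted p = 4.58e-09 and 4.01e-07) and was higher in Nlrp3-/- control (0.30, but 0.16 and no longer called with median-ratio scaling) and lower with LPS+ATP (-0.19, limma adjusted p = 0.0259), with an interaction of -0.49 (limma adjusted p = 0.00176). Nfkbil1 rose as well (0.65 and 0.31), with an interaction of -0.33 (limma adjusted p = 0.0172). With LPS+ATP it was lower in Nlrp3-/- BMDMs (-0.29, limma adjusted p = 0.00302). Of the lower calls of Bcl3 and Nfkbil1 with LPS+ATP, only 1 held without a filter or with TPM. The same was true without wild-type LPS+ATP replicate 1 or 2 or Nlrp3-/- LPS+ATP replicate 1 or 3. Nfkbid, which encodes IκBNS, ran from 5.74 to 6.57 FPKM in wild-type and from 6.996 to 7.79 FPKM in Nlrp3-/- BMDMs, did not pass for costimulation (-0.02 and -0.02), and was higher in Nlrp3-/- BMDMs in either state (0.23 and 0.24). These calls depended on scaling, since with median ratios Nfkbid passed as higher with costimulation in both genotypes (0.26 and 0.24) and passed between genotypes in neither state (0.096 and 0.073), and with upper-quartile scaling it did not pass between genotypes with LPS+ATP (0.13).

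Of 12 genes of the IKK complex and upstream kinases, 4 rose and 2 fell with costimulation in wild-type (all tested genes 23.3% and 53.1%). In Nlrp3-/- BMDMs 5 rose and 3 fell (all tested genes 20.6% and 53.8%). With median-ratio scaling 7 rose and 1 fell in each genotype. The median log2 difference was 0.06 and 0.08. Tank, an adaptor of the IKK-related kinases, rose most in both (1.70 and 1.40), and Ikbke, one of those kinases, rose by 0.92 and 1.15 on the log2 scale. Ikbkg rose by 1.07 in wild-type (limma adjusted p = 0.000500). Its FPKM was 4.38 to 7.17 in wild-type control and 10.3 to 15.2 in wild-type LPS+ATP. In Nlrp3-/- BMDMs it was 5.18 to 8.56 in control and 8.82 to 11.6 with LPS+ATP. Between genotypes, 2 were higher and 1 lower in control (all tested genes 33.3% and 14.5%). With LPS+ATP 2 were higher and 2 lower (all tested genes 35.9% and 12.6%). With median-ratio scaling these became 0 and 3 in control and 0 and 5 with LPS+ATP.

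Of 17 genes of ubiquitin editing and linear ubiquitin, 10 rose and 2 fell in wild-type (all tested genes 23.3% and 53.1%). In Nlrp3-/- BMDMs 10 rose and 3 fell (all tested genes 20.6% and 53.8%). The medians were 0.62 and 0.37. With median-ratio scaling 15 rose and 1 fell in wild-type, and 12 rose and 2 fell in Nlrp3-/- BMDMs. The A20-binding proteins Tnip1 (1.84 and 1.99) and Tnip3 (1.77 and 0.94) were among those that rose in both. Tnip3 had a negative interaction (-0.83, limma adjusted p = 6.19e-06), while Otulin, a deubiquitinase of linear chains, had a positive one (0.61, limma adjusted p = 0.000259). Interaction terms passed as negative in 7 and positive in 1 of the 17 (all tested genes 13.0% and 14.7%). Between genotypes 7 were higher and 5 lower in control (all tested genes 33.3% and 14.5%). With LPS+ATP 2 were higher and 5 lower (all tested genes 35.9% and 12.6%). With median-ratio scaling these became 5 higher and 7 lower in control and 0 and 11 with LPS+ATP.

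Of 21 known NF-κB target genes, 21 rose in wild-type (all tested genes 23.3%). In Nlrp3-/- BMDMs 20 rose (all tested genes 20.6%), the exception being Vcam1 (0.09, limma adjusted p = 0.113). The medians were 5.03 and 4.53. Il1b, Nos2, Il6, Il12b, Cxcl1, Cxcl2, Ptgs2, Csf2 and Csf3 stayed below 1 FPKM in all wild-type control libraries. They passed the filter only through other groups, so their rise in wild-type was partly set by it. Il6, Il12b, Csf2 and Csf3 also stayed below 1 FPKM in all Nlrp3-/- control libraries, so the same holds for their rise there. The size of the log2 differences of all these genes depends on the pseudocount. The cytokine gene Il1b rose by 10.13 and 8.66 and Nos2, which encodes inducible nitric oxide synthase, by 9.72 and 8.07 on the log2 scale. In control cells 14 of the 21 were higher and 3 lower in Nlrp3-/- than in wild-type (all tested genes 33.3% and 14.5%). The largest differences were those of Lcn2 (2.01), Cxcl1 (1.89) and Vcam1 (1.69), of which Lcn2 is also abundant in neutrophils. With median-ratio scaling 13 were higher and 5 lower. The 3 lower ones, named after their values were seen, were the chemokine genes Ccl4 (-1.56), Ccl3 (-1.02) and Ccl5 (-0.36), the last without a call when wild-type control replicate 3 (-0.28) or Nlrp3-/- control replicate 3 (-0.24) was left out or the control groups were fitted alone. With LPS+ATP 4 were higher and 10 lower (4 and 14 with median-ratio scaling), led by Il12b (-1.54), Vcam1 (1.29) and Nos2 (-1.02). Of all tested genes, 35.9% were higher and 12.6% lower. Interaction terms of the targets passed as negative in 14 and as positive in 4 (all tested genes 13.0% and 14.7%). The most negative were those of Il12b (-2.21), Lcn2 (-2.08) and Ptgs2 (-1.96). The 4 positive ones, also named after their values were seen, were Ccl4 (1.43), Ccl3 (0.76), Cxcl10 (0.46) and Csf3 (0.31), of which Csf3 did not pass with median-ratio scaling (0.13) or a pseudocount of 0.1 (0.093). The neutrophil marker sum given above was higher in the same Nlrp3-/- libraries, and its part was not tested.

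**Figure D4:**
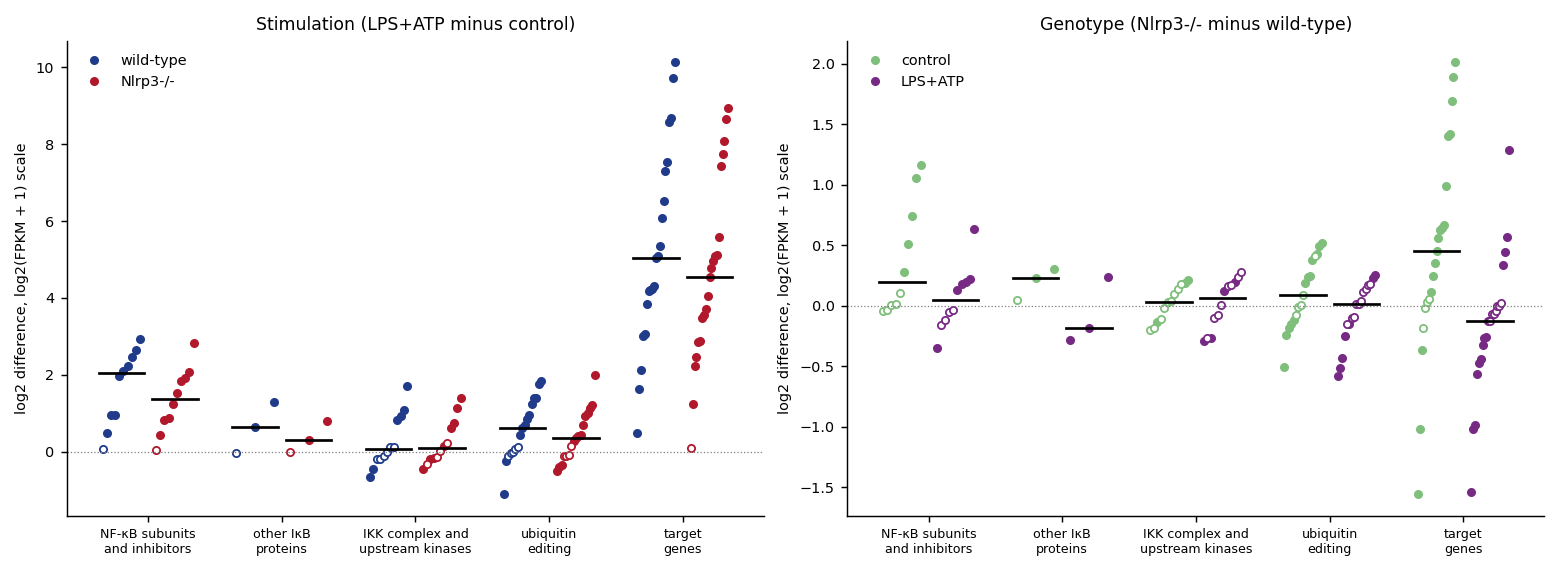
Log2 difference of each gene (vertical axes, log2(FPKM + 1) scale) for the 10 members and the 4 lists of pathway genes, with costimulation (left) and between genotypes (right). Each point is 1 gene, filled where the limma adjusted p was under 0.05, and the bars are the list medians. The target genes had medians of 5.03 and 4.53 with costimulation, above the medians of 2.04 and 1.38 of the members.

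Over the 12 libraries, which share the 4 group means, the member most like each member in log2(FPKM + 1) was Nfkbia for Nfkb2 (Pearson's r = 0.998) and for Relb (0.980), Nfkbib for Nfkb1 (0.989), Nfkbiz for Nfkbie (0.989), and Nfkb1 for Rela (0.941) and for Tnfaip3 (0.981). Rel was least like every other member, its r ranging from 0.321 with Nfkbiz to 0.479 with Nfkbib. Among all tested genes outside the group, the most alike were N4bp1 for Nfkb2 (0.999), Spata13 for Nfkbia (0.999), Dnmt3l for Nfkbib (0.998), Mmp13 for Nfkbiz (0.998), Nod2 for Nfkb1 (0.996), Gsr for Nfkbie (0.996), Rdh11 for Relb (0.994), Fbxw17 for Tnfaip3 (0.987), Gm43214 for Rela (0.984) and Zfp513 for Rel (0.804). These values are descriptions, with the differences between the 4 groups included.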

How the data were processed

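Libraries were made from total RNA of the 12 BMDM samples with a TruSeq RNA kit. The authors deposited 1 table of FPKM values per gene and library. The submitters' processing notes name GRCm39 and DESeq2 1.24.0. The aligner and the counting tool are not given in the sources used here, nor whether strand was used. FPKM holds no read counts, so depth in reads is unknown; steps between low values gave a relative depth of 1 to 1.21. Values summed to 283278 to 299393 FPKM per library, and libraries of the same group correlated at 0.990 to 0.993.

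Groups were taken from the sample labels. The study calls its replicates independent, but the labels do not tie the 3 libraries of a group to separate animals or cultures. If they share a source, p-values measure only the spread between these libraries. Genes with at least 1 FPKM in at least 3 of 12 libraries were kept, transformed as log2(FPKM + 1) and tested with limma 3.58.1 (R 4.3.3, trend) in 1 fit of the 4 groups, with 5 contrasts and Benjamini-Hochberg adjustment over 12622 genes. The interaction is the difference with costimulation in Nlrp3-/- minus that in wild-type BMDMs. Inhibitor to subunit ratios were compared by two-sided exact permutation tests (scipy 1.17.1). Scripts were tested on simulated data. Alternatives were fits with a replicate block, without trend, on only the groups of a comparison or without 1 library at a time, filters of 5 FPKM or none, a pseudocount of 0.1, and scaling by median ratios, to the upper quartile or to TPM.

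All 10 members were named, and from each list of pathway genes at most the 3 called genes with the largest log2 difference and no overlap of groups in a comparison, with all 3 other IκB proteins. The alternatives for list genes were added after seeing the data. Members and lists were chosen with earlier results of these data known. Lists of dendritic cell, B cell and T cell markers summed to at most 0.559, 1.91 and 0.0905 FPKM in any library.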

Additional observations from a re-analysis of the deposited data

Results flagged for a closer look

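Results are given here where the change with costimulation differed between the genotypes by the interaction term (limma adjusted p under 0.05 over all tested genes). All values are log2 differences. A negative value is, on the log2 scale, a smaller rise or a larger fall in Nlrp3-/- BMDMs, or a fall there against a rise in wild-type. Among the members these were Nfkbie (-0.86), Nfkbia (-0.56), Nfkbiz (-0.53), Nfkbib (-0.45) and Nfkb2 (-0.38), and among the other IκB proteins Bcl3 (-0.49) and Nfkbil1 (-0.33). Of the IKK complex and upstream kinases, Tank (-0.31), Chuk (-0.29) and Tab3 (-0.29) were negative and Ikbke (0.22) was positive. Ikbke did not pass with upper-quartile scaling or without Nlrp3-/- LPS+ATP replicate 2. The negative calls numbered 2 with no filter or a filter of 5 FPKM. They also numbered 2 without wild-type control replicate 2 or 3, wild-type LPS+ATP replicate 2 or 3, or Nlrp3-/- control replicate 2. Of the ubiquitin genes, Tnip3 (-0.83), Otud7b (-0.46), Traf6 (-0.42), Traf2 (-0.39), Rnf11 (-0.34), Tax1bp1 (-0.33) and Birc3 (-0.18) were negative and Otulin (0.61) was positive. Negative calls in this list numbered 6 without a filter and with a replicate block. They also numbered 6 without wild-type control, wild-type LPS+ATP or Nlrp3-/- control replicate 3, or any single Nlrp3-/- LPS+ATP library. Of the named target genes, Il12b (-2.21), Lcn2 (-2.08), Ptgs2 (-1.96), Nos2 (-1.65), Il1b (-1.46), Cxcl1 (-1.32), Il1a (-1.23) and Vcam1 (-0.40) were negative. Of the other targets, named after their values were seen, Ccl4 (1.43), Ccl3 (0.76), Cxcl10 (0.46) and Csf3 (0.31) were positive and Cxcl2 (-1.42), Tnf (-0.999), Sod2 (-0.71), Traf1 (-0.62), Il6 (-0.58) and Icam1 (-0.16) were negative. The call of Icam1 was lost without a filter, without trend and without wild-type control replicate 1, wild-type LPS+ATP replicate 1 or 2, Nlrp3-/- control replicate 2 or 3, or Nlrp3-/- LPS+ATP replicate 1 or 3 (-0.17 to -0.13).

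Sex and genotype cannot be told apart in these libraries, and the part of neutrophil, fibroblast and macrophage markers in the terms was not tested.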

How the results depend on the processing

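The 9 stimulation calls of the members in each genotype, the 5 interaction calls, the higher control levels of Nfkb2, Nfkbia, Nfkbie and Nfkbiz in Nlrp3-/- BMDMs, and with LPS+ATP the higher Nfkbiz and the lower Nfkbib held under each alternative run. With LPS+ATP, the calls of Nfkb2, Relb, Nfkbia and Nfkbie held in 11, 8, 13 and 6 of 15. The cause of the changes below was not tested.

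Sign changes were as follows, as log2 differences. With median-ratio scaling the sign turned for Nfkb1 (-0.12), Rela (-0.14), Nfkbib (-0.038) and Nfkbil1 (-0.084) between controls, Nfkb2 (-0.062) and Nfkbia (-0.0088) with LPS+ATP, and Nfkbid with costimulation (0.26 in wild-type and 0.24 in Nlrp3-/-) and in the interaction (-0.023). With upper-quartile scaling it turned for Nfkb1 (-0.051), Rela (-0.063) and Nfkbil1 (-0.015) between controls, and Nfkbid with costimulation (0.13 and 0.096) and in the interaction (-0.033). With TPM it turned for Nfkbid with costimulation (0.020 and 0.043). With median-ratio scaling, Nfkbid became called with costimulation in both genotypes, and the calls between genotypes of Nfkbid in both states and of Bcl3 in control were lost. The ratio of inhibitors to subunits between genotypes with LPS+ATP was -0.018 as a mean of log2 values. None of these signs rested on a called value of the FPKM fit except those of Nfkb2 and Nfkbia with LPS+ATP.

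Leaving out each library gave, between controls, -0.041 to 0.060 for Nfkb1, -0.061 to 0.00076 for Rel, -0.038 to 0.040 for Rela and -0.35 to 0.11 for Tnfaip3; with LPS+ATP, -0.10 to 0.051 for Rela, -0.44 to 0.047 for Tnfaip3 and -0.00012 to 0.060 for the ratio; in the interaction, -0.054 to 0.029 for Rel, -0.11 to 0.044 for Rela, -0.13 to 0.0086 for Relb, -0.39 to 0.19 for Tnfaip3 and -0.037 to 0.057 for Nfkbid; and with costimulation, for Nfkbid, -0.073 to 0.011 in wild-type and -0.059 to 0.0094 in Nlrp3-/- BMDMs.

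Same-numbered replicates did not deviate together (r from -0.06 to 0.05, limit 0.1 for pairing). With a replicate block, 4 members were higher and 1 lower with LPS+ATP, Relb no longer passing, and no other call of a member changed. Read depth is unknown, so counting error at low FPKM could not be given.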
